A study of Mus musculus with 10 samples.

Results

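Expression of genes for serpins, cystatins and other protease inhibitors was compared between tuft cells and other epithelial cells of the inflamed mouse pancreas. The genes were taken by name, as all rows whose symbol began with Serpin, Spint, Wfdc, Itih, Slpi or Stf and a letter, or was Cst followed by digits or letters alone, without the cleavage stimulation factor genes (Cstf). Of the 12160 listed genes, 37 met this rule. They fell into 20 serpins, 5 cystatins and stefins, 2 Kunitz inhibitors, 7 genes of the WAP (whey acidic protein) family and 3 heavy chains of inter-alpha-inhibitor. No gene named Slpi or Stf was among them.

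Both groups came from wild type mice in which pancreatitis had been induced with 4 cycles of caerulein, a cholecystokinin ortholog. The isolation protocol names male CD1 mice, whereas the strain field of the labels reads Mixed, and the age of these animals is not given in the sources used here. Tuft cells, rare chemosensory epithelial cells, were sorted as Cd45-neg; EpCAM+; Siglec f+ cells, and the non-tuft epithelial cells as Cd45-neg; EpCAM+; Siglec f-neg cells. Each of the 10 Smart-Seq2 libraries (5 per group) was made from 100 cells of an individual mouse, and cells of both groups were taken from 5 mice. Values are log2(RPKM + 1), where RPKM is reads per kilobase of transcript, scaled to the mapped reads of the library, so levels can be compared between genes as well as between libraries. Read counts are not part of these values, and the depth of each library is unknown. The lowest value of a library, called its floor here, was 0 in 9 libraries and 0.17 in non-tuft library 2, where it stands for a value of 0. Because these are bulk samples, fewer cells of a type and less RNA per cell cannot be told apart.

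The sorted populations were checked against marker lists. All 17 listed tuft markers were higher in tuft cells, whereas 18 of 22 acinar markers were lower, against 4.32% of all genes higher and 3.99% lower. Siglecf, among the 17, encodes the antigen by which the cells were sorted, so its difference follows from the gate and is no check. Of the 17 tuft markers, 12, 13, 4, 4 and 15 were above the floor in non-tuft libraries 1 to 5, with medians of 2.49, 3.54, 0, 0 and 4.28 against 6.08 to 6.56 in tuft libraries. Acinar transcripts were still present in tuft libraries, with a median over the 22 genes of 8.06, 7.98, 5.77, 8.82 and 3.81 in tuft libraries 1 to 5 against at least 10.46 in every non-tuft library. In the non-tuft libraries the median over 14 ductal markers ranged from 4.36 to 7.15. The libraries numbered 5 stood apart: all 10 listed fibroblast and endothelial markers were above the floor in both of them, against 0 to 4 of the 10 in any other library, and 8 (non-tuft) and 9 (tuft) of 10 leukocyte markers, against 1 to 5 elsewhere. Calls that change without these libraries are given both ways.

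Protease inhibitors keep secreted and intracellular proteases in check. Serpins present an exposed reactive centre loop as bait: a target serine protease cuts the loop, which then inserts into the body of the serpin and traps the enzyme. Cystatins and stefins block cysteine cathepsins, Kunitz and WAP domains plug the active site of serine proteases, and the heavy chains of inter-alpha-inhibitor are linked to the Kunitz protein bikunin and to hyaluronan. In the pancreas such proteins matter because acinar cells make digestive protease zymogens, and their premature activation damages the gland in pancreatitis. Several serpins have lost inhibition altogether and act as hormone carriers or chaperones.

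The coding sequence of the reactive loop is shown first for the serpins on which the results turn, because this short stretch decides which protease, if any, a serpin can trap, and it is known to vary between close paralogs. Each line gives 36 codons, 5′ to 3′ on the coding strand, ending with the Pro-Phe codons that lie downstream of the loop in most serpins. Capitals mark the codons of the hinge, Gly, then Thr, Ser, Val or Met, then Glu, then Ala or Gly, from which the loop moves when it inserts. All positions are on NCBIM37 (mm9), and each stretch lies in coding sequence. Among serpins of clade A on the minus strand of chromosome 12, the stretches lie in exon 5 of 5 at chr12:104885125-104885232 (Serpina6), chr12:105218642-105218749 (Serpina11), chr12:105235276-105235383 (Serpina9) and chr12:105269301-105269408 (Serpina12).
Serpina6: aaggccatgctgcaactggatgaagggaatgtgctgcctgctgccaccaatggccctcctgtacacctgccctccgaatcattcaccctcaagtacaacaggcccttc
Serpina11: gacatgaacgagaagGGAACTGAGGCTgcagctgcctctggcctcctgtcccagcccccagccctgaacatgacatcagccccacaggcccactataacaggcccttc
Serpina9: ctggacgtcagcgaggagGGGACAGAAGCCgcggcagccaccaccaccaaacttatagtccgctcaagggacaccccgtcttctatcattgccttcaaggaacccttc
Serpina12: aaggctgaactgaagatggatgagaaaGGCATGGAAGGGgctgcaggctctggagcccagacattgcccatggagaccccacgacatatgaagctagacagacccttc

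In Serpina6, which encodes the glucocorticoid carrier corticosteroid-binding globulin, these hinge codons were not found. Serpina11 and Serpina9 each had alanine codons at 4 of the 5 positions that start with the last hinge codon, and Serpina12 at 2 of 5. The intracellular clade B serpins on chromosome 13 carried the same hinge, at chr13:32934753-32934860 on the minus strand in exon 7 of 7 (Serpinb1a), chr13:33070049-33070156 on the plus strand in exon 7 of 7 (Serpinb6b) and chr13:33107544-33107651 on the plus strand in exon 8 of 8 (Serpinb9). In each of these, 4 of the 5 codons were alanine.
Serpinb1a: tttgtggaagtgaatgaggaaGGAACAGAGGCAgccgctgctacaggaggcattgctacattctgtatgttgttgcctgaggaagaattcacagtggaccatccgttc
Serpinb6b: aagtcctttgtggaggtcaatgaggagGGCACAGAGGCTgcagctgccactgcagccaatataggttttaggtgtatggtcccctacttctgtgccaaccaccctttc
Serpinb9: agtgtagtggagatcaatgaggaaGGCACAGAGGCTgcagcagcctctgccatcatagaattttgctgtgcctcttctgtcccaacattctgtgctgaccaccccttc

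Outside these clades, the stretch of Serpini2 (pancpin, a serpin known from pancreas) spans an intron, with its ends at 75050460 and 75053138 on the minus strand of chromosome 3 in exons 7 and 8 of 9. That of Serpinh1 (Hsp47, the collagen chaperone of the endoplasmic reticulum) lies at chr7:106494723-106494830 on the minus strand in exon 5 of 5, and the hinge codons were not found in it. Of the 20 serpin genes measured, 17 had such a stretch and 14 of these had the hinge.
Serpini2: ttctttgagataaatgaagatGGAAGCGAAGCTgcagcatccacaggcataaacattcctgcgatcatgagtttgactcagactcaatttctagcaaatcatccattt
Serpinh1: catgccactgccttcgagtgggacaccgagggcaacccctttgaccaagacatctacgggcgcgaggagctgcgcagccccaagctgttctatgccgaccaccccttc

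The region before the start site is shown for 3 genes called different at high levels: Serpini2 and Wfdc15b, both abundant in non-tuft cells and lower in tuft cells, and Spint2, the most abundant of the inhibitor genes in tuft cells. Sequences are from RefSeq (GRCm38.p6), 250 bases ending at the start site, 5′ to 3′ on the strand of the gene, which is the minus strand for all 3. They lie at chr3:75270079-75270328 (Serpini2), chr2:164221664-164221913 (Wfdc15b) and chr7:29281978-29282227 (Spint2). Capitals mark matches to the motifs named in the next paragraph.
Serpini2: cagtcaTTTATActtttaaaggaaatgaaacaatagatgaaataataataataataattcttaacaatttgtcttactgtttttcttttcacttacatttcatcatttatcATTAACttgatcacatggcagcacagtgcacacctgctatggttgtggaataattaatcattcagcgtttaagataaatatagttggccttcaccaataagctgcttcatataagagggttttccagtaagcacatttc
Wfdc15b: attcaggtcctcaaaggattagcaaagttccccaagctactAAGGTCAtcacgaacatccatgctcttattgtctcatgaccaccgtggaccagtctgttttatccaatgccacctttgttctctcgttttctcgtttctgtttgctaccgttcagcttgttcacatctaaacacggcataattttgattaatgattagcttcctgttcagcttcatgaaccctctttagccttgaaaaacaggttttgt
Spint2: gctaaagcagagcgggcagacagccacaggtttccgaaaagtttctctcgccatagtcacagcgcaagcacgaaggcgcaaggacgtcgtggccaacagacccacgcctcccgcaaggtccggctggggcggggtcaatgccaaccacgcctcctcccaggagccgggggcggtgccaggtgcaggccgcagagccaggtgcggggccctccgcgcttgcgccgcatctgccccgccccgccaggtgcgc

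Over the 300-base windows from 250 bases before to 50 bases after the start site, GC content was 30.3% for Serpini2, 42.3% for Wfdc15b and 69.3% for Spint2, against a median of 52.7% for all 27025 promoters and 51.0% for the 27 of the 37 inhibitor genes that had a window. The 5 motifs searched on both strands were the TATA box TATAAA, the octamer ATGCAAAT read by POU factors, the NR5A2 core AAGGTCA, the RBPJ core TGGGAA and the HNF1 core GTTAAT. The marked matches in Serpini2 were the letters TATAAA at −244 and an HNF1 core at −139, both on the opposite strand. Positions are counted in bases from the start site, and 2 more HNF1 cores began at 15 and 29. All matches are of letters alone, at any place in the window, and whether any is a working element was not tested. Wfdc15b had an NR5A2 core at −209, and none of these letters occurred in the Spint2 window. Among all promoters 14.2% held the TATA box, 1.75% the octamer, 4.66% the NR5A2 core, 25.5% the RBPJ core and 7.20% the HNF1 core. Among the 27 windows of the inhibitor genes, 5, 0, 3, 12 and 3 held them in the same order.

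Of the 37 inhibitor genes, 5 were called higher and 10 lower in tuft cells, where a call needed both an adjusted p under 0.05 (limma, Benjamini-Hochberg adjustment over all 12160 genes) and more than a 4-fold difference. The genes higher in tuft cells were Spint2, Serpinb1a, Serpina9, Serpina11 and Serpina12. Those lower were Serpina6, Wfdc15b, Serpini2, Serpinb6b, Serpinb9, Wfdc2, Wfdc3, Itih2, Itih4 and Serpinh1. These were 13.5% and 27.0% of the inhibitor genes, against 4.32% of all genes called higher and 3.99% called lower. The same 15 genes (40.5%) passed an adjusted p under 0.05 at any fold, against 11.7% of all genes, and 19 passed an unadjusted p under 0.05. With floors counted as 0, the groups were fully separated for 12 of the 37 genes (32.4%), against 11.2% of all genes. The median log2 difference, tuft minus non-tuft, was −0.27 over the 37 genes and 0.02 over all genes. Only 9 of the 37 were above the floor in all 10 libraries, and 9 (24.3%) were at the floor in every library of a group, against 7.52% of all genes. Among the 15 called genes, 4 (Serpina12, Itih2, Itih4 and Wfdc3) were at the floor throughout a group, so that their fitted differences are no measure of size. Genes with an RPKM variance under 1 had been removed, so a gene at the floor throughout a group is listed only through the other group. The calls and any full separation of such genes are therefore partly fixed by that filter, and their count is no independent support.

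**Figure D1:**
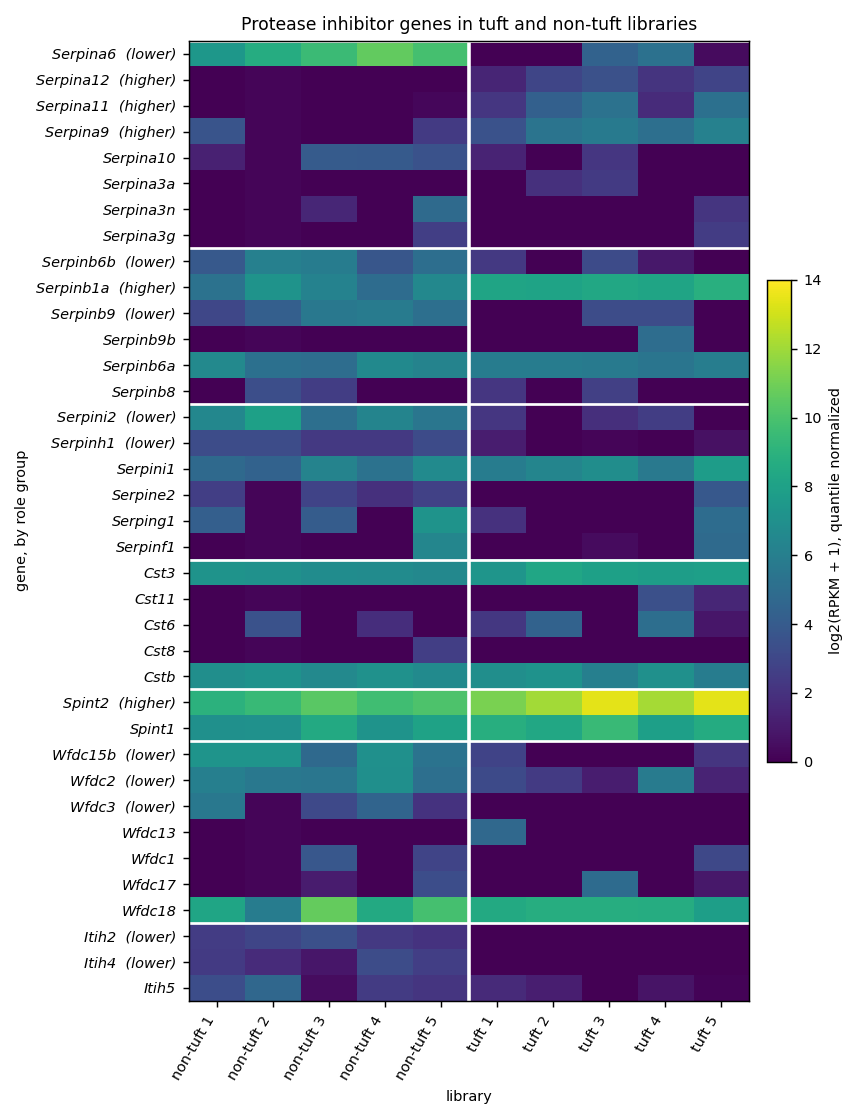
Level of each of the 37 inhibitor genes (rows, by family) in each of the 10 libraries (columns), as quantile normalized log2(RPKM + 1); (higher) and (lower) mark genes called in tuft cells. The bright Spint2 row reaches 13.44 in tuft libraries 3 and 5, Serpina6 lies at 7.43 to 10.64 in the non-tuft libraries, and 5 genes are called higher and 10 lower.

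The Kunitz inhibitors included the most abundant of these genes in tuft cells. Spint2 (chr7:30041350-30066996) encodes the transmembrane inhibitor HAI-2, which blocks the membrane serine proteases hepsin, matriptase and prostasin on epithelial cells. It was listed at 9.01, 9.45, 10.43, 9.69 and 10.08 in non-tuft libraries 1 to 5 and at 11.16, 12.04, 13.44, 12.14 and 13.44 in tuft libraries 1 to 5. Every tuft library lay above every non-tuft library. The means were 12.44 ± 0.99 (SD, n = 5) in tuft and 9.73 ± 0.55 (SD, n = 5) in non-tuft cells, a log2 difference of 2.71 (standard error 0.51, adjusted p = 0.00372) or 6.55-fold on the RPKM + 1 scale. By level, Spint2 ranked 6th to 29th among the 12160 genes of a tuft library and 40th to 99th in a non-tuft library.

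Its paralog Spint1 (HAI-1, the main inhibitor of matriptase) was listed at 7.05, 7.08, 8.48, 7.20 and 8.07 in non-tuft and at 8.79, 8.42, 9.48, 7.88 and 8.61 in tuft libraries 1 to 5. The groups overlapped, and the log2 difference of 1.06 (standard error 0.44) did not pass (adjusted p = 0.158). With every library centred on its ribosomal protein genes, the adjusted p was 0.0304. Spint2 was above Spint1 in all 10 libraries, by log2 level. Of the membrane proteases blocked by the pair, hepsin (Hpn) was lower in tuft cells, with means of 3.46 and 6.21 and a log2 difference of −2.76 (adjusted p = 0.00374). Prostasin (Prss8) and matriptase (St14) were chosen after their values were seen: their log2 differences were −1.60 (adjusted p = 0.0346, a fold under 4) and −0.64 (adjusted p = 0.525). HGF activator (Hgfac), another target, had a log2 difference of 0.75 (adjusted p = 0.449), and the related proteases Tmprss2 and Tmprss4 of 1.72 and 1.71 (adjusted p = 0.087 and 0.142). None of these 3 passed the test, and these 3, like Prss8 and St14, were outside the naming rule.

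**Figure D2:**
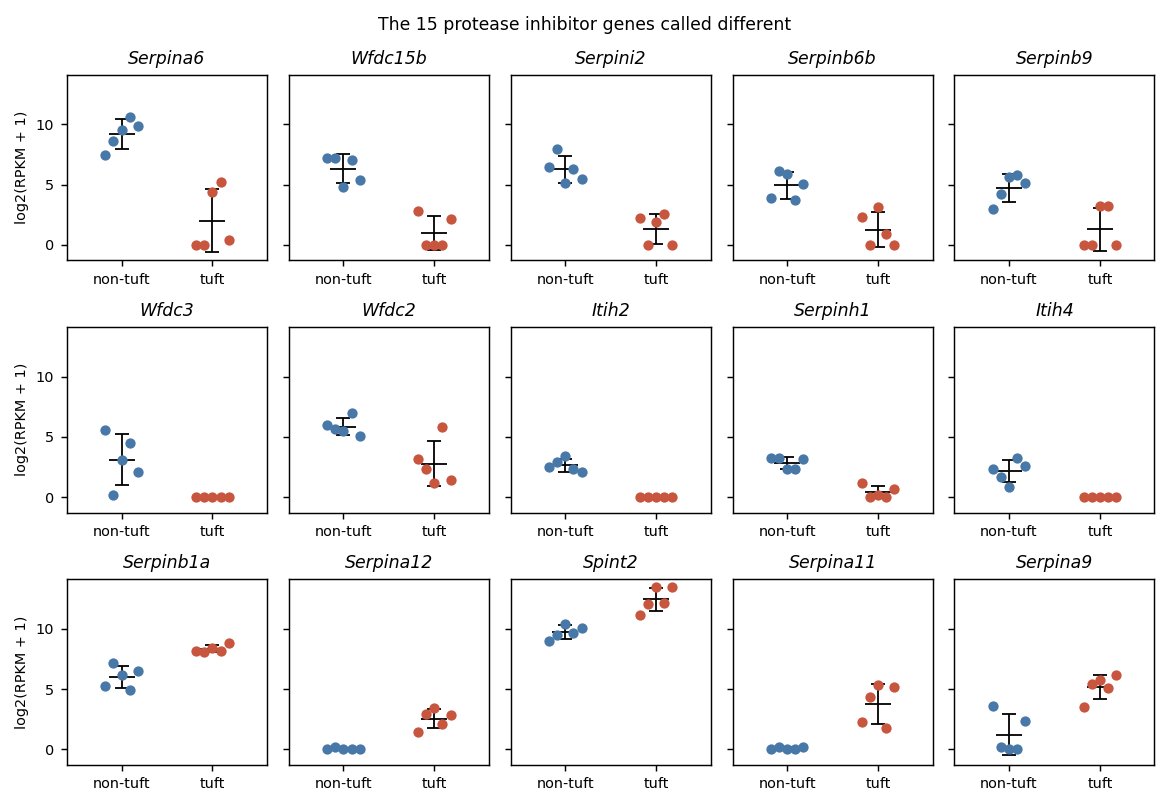
Values in log2(RPKM + 1) of the 15 inhibitor genes called different, with 1 point per library, non-tuft in blue and tuft in red; the horizontal line is the group mean and the bars 1 SD (n = 5). The groups overlap for Serpinb9, Wfdc2 and Serpina9 and share the floor for Wfdc3, and Itih2, Itih4 and Wfdc3 lie at 0 in all 5 tuft libraries.

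Clade A serpins, most of which are secreted into plasma by the liver, were divided. Of 8 listed genes, 3 were higher, 1 was lower and 4 were not called in tuft cells. Serpina6 (chr12:104884840-104895422) showed the largest difference of the 37 genes. It was listed at 7.43, 8.65, 9.55, 10.64 and 9.85 in non-tuft libraries 1 to 5 and at 0, 0, 4.42, 5.23 and 0.40 in tuft libraries 1 to 5. The lowest non-tuft library lay above the highest tuft library. Means were 9.22 ± 1.23 and 2.01 ± 2.59 (SD, n = 5 each), and the log2 difference was −7.21 (standard error 1.05, adjusted p = 7.49e-04). In non-tuft libraries it ranked 37th to 345th among all genes.

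Serpina12 encodes vaspin, an adipokine that inhibits kallikrein 7. No non-tuft library had it above the floor, whereas it was at 1.45, 2.93, 3.45, 2.10 and 2.86 in tuft libraries 1 to 5 (adjusted p = 0.00187). Serpina11 reached 0.23 in non-tuft library 5 and lay at the floor in non-tuft libraries 1 to 4, whereas tuft libraries had 2.24, 4.32, 5.30, 1.73 and 5.15 (log2 difference 3.67, standard error 0.67, adjusted p = 0.00304). All 5 tuft libraries therefore held transcripts of both genes, at low to middle levels.

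Serpina9, known as a serpin of germinal centre B cells, was listed at 3.61, 0.17, 0, 0 and 2.36 in non-tuft and at 3.54, 5.38, 5.75, 5.13 and 6.18 in tuft libraries 1 to 5. Tuft library 1 lay just under non-tuft library 1, and the other tuft libraries lay above all non-tuft libraries. The log2 difference was 3.97 (standard error 0.75, adjusted p = 0.00393). Of the B cell markers, Ms4a1 was listed at 0 in tuft libraries 1 to 3 and at 1.73 and 2.32 in tuft libraries 4 and 5, and Cd79a at 2.35, 0, 0, 3.38 and 3.56 in tuft libraries 1 to 5. In non-tuft library 5, where Serpina9 was at 2.36, they were at 3.53 and 5.23, and at the floor in the other non-tuft libraries. The median over the 17 tuft markers was 2.49, 3.54, 0, 0 and 4.28 in non-tuft libraries 1 to 5. Among these markers, Dclk1 had the highest mean in non-tuft cells, at 6.83, 8.46, 2.88, 0 and 7.14 in the same libraries. The paper reports that Dclk1 is higher in tuft cells but not specific to them. In non-tuft library 1, Siglecf, Il25, Gfi1b, Chat and Il17rb were at 0, and the other 12 tuft markers were above the floor. In non-tuft library 2, where Dclk1 was highest of the non-tuft libraries, Serpina9 was at the floor. The part of B cell or tuft transcripts in the Serpina9 values of non-tuft libraries was not tested. Of its possible 50-base reads, 1.96% occur in another annotated coding transcript, most often of Lrrc61.

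These 3 genes are immediate neighbours. Serpina11, Serpina9 and Serpina12 lie in this order within 64.2 kb (chr12:105218453-105282653) with no other annotated gene among them, and all 3 were higher in tuft cells. The nearest listed serpin genes lie 323.0 kb away on the side of Serpina6 and 68.3 kb away on the side of Serpina3a. Across the whole 797.7 kb from Serpina10 to Serpina3n the annotation holds 38 genes, 27 of them named Serpina, and 8 were in the table. Serpina10, which encodes the inhibitor of coagulation factor Xa that depends on protein Z, had a log2 difference of −1.88 (adjusted p = 0.152), and passed without non-tuft library 2 (adjusted p = 0.0406). Along the chromosome the called genes changed sign between Serpina6 and Serpina11, and the 3 Serpina3 genes, like Serpina10, were not called (adjusted p 0.366 to 0.974).

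**Figure D3:**
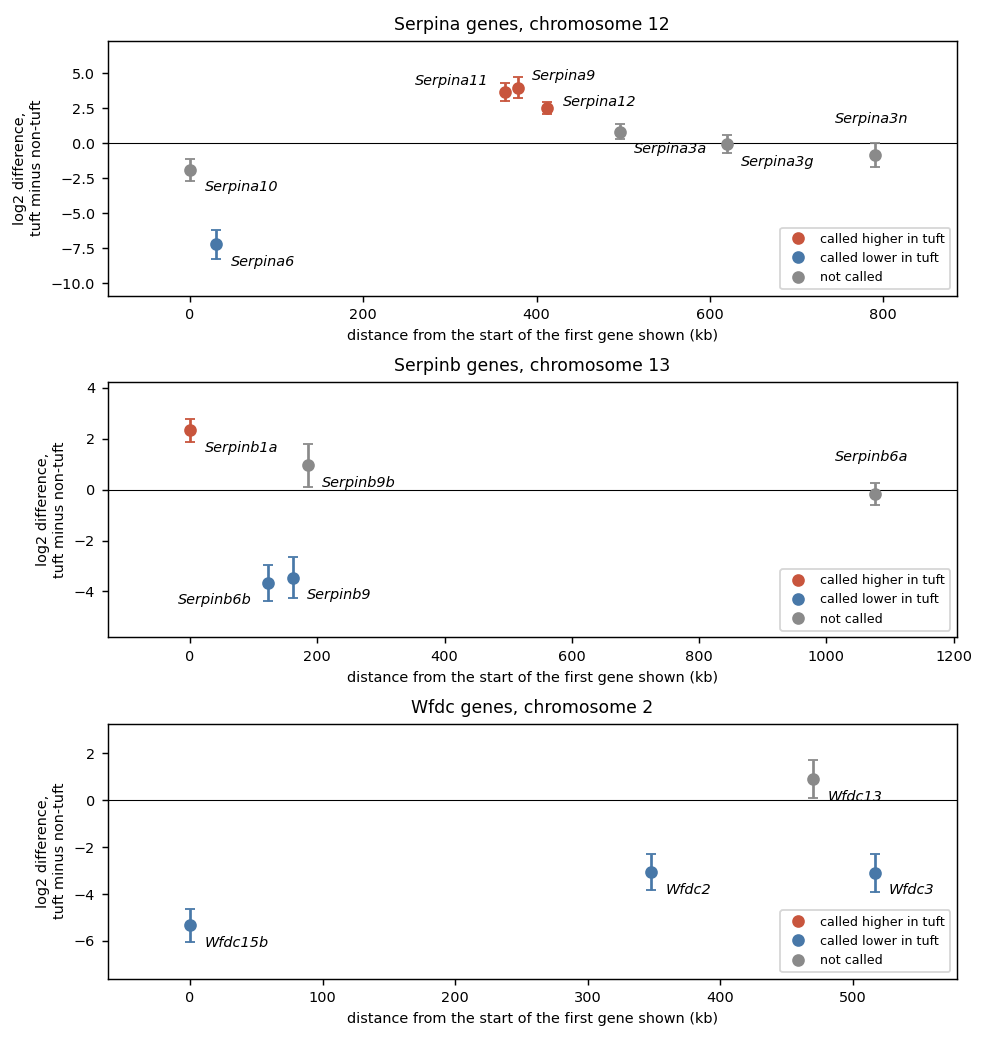
Log2 difference (tuft minus non-tuft, bars 1 standard error) of neighbouring inhibitor genes against distance along the chromosome in kb from the first gene shown, for the Serpina, Serpinb and Wfdc genes. Serpina11, Serpina9 and Serpina12 form a block of 3 genes called higher (red), blue marks genes called lower and grey those not called, and the fitted differences of Serpina12 and Wfdc3, against a group wholly at the floor, are no measure of size.

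Clade B serpins stay inside the cell and protect it from its own or incoming granule proteases. Among 6 listed genes, 1 was higher, 2 were lower and 3 were not called. Serpinb1a (chr13:32933961-32943054) inhibits neutrophil elastase, cathepsin G and proteinase 3. It was listed at 5.25, 7.17, 6.19, 4.94 and 6.51 in non-tuft and at 8.19, 8.12, 8.40, 8.16 and 8.84 in tuft libraries 1 to 5. All tuft values lay within a narrow range above the non-tuft values, with means of 8.34 ± 0.30 and 6.01 ± 0.92 (SD, n = 5 each). The log2 difference was 2.33 (standard error 0.47, adjusted p = 0.00534), or 5.02-fold on the RPKM + 1 scale. Of its 50-base words 3.32% are shared with other coding transcripts, mainly the near copy Serpinb1c.

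Serpinb6b, a paralog of the cathepsin G inhibitor Serpinb6a, and Serpinb9, an inhibitor of granzyme B, went the other way. Serpinb6b was listed at 3.90, 6.10, 5.86, 3.74 and 5.07 in non-tuft and at 2.30, 0, 3.18, 0.90 and 0 in tuft libraries 1 to 5 (log2 difference −3.66, standard error 0.70, adjusted p = 0.0042). Its groups did not overlap. Serpinb9 was listed at 2.98, 4.26, 5.62, 5.80 and 5.13 in non-tuft and at 0, 0, 3.25, 3.26 and 0 in tuft libraries 1 to 5. Tuft libraries 3 and 4 lay above non-tuft library 1, and the log2 difference was −3.46 (standard error 0.81, adjusted p = 0.0137). Without both libraries numbered 5 its adjusted p was 0.0988.

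Serpinb1a, Serpinb6b and Serpinb9 start within 161.2 kb of each other on chromosome 13, so this cluster holds called genes of both signs. Serpinb6a, abundant in both groups with means of 5.78 ± 0.20 in tuft and 5.93 ± 0.78 in non-tuft cells (SD, n = 5 each), was not called (log2 difference −0.16, standard error 0.43, adjusted p = 0.860). Serpinb8 and Serpinb9b were not called either (adjusted p = 0.909 and 0.527). Shared 50-base words came to 2.87% for Serpinb6b, 1.99% for Serpinb6a and 0.38% for Serpinb9.

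Among the 6 serpins of the later clades, 2 were lower and 4 were not called. Serpini2 (pancpin) was listed at 6.46, 7.94, 5.13, 6.30 and 5.49 in non-tuft and at 2.20, 0, 1.89, 2.57 and 0 in tuft libraries 1 to 5. The gap between the groups was wide, from 2.57 to 5.13. Means were 6.26 ± 1.09 and 1.33 ± 1.24 (SD, n = 5 each), with a log2 difference of −4.93 (standard error 0.66, adjusted p = 3.81e-04), or 30.5-fold on the RPKM + 1 scale. Its related gene Serpini1, the tissue plasminogen activator inhibitor neuroserpin, was listed at 4.77, 4.39, 6.27, 5.30 and 6.67 in non-tuft and at 5.90, 6.39, 6.87, 5.63 and 7.72 in tuft libraries 1 to 5. That difference of 1.03 (standard error 0.55) did not pass (adjusted p = 0.273).

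Serpinh1 was listed at 3.24, 3.23, 2.30, 2.33 and 3.20 in non-tuft and at 1.14, 0, 0.17, 0 and 0.64 in tuft libraries 1 to 5, without overlap (log2 difference −2.47, standard error 0.40, adjusted p = 0.00149). Under ribosomal centring the difference was −1.63, under the fold threshold. The remaining genes of this group, Serpine2 (protease nexin-1), Serping1 (C1 inhibitor) and Serpinf1 (PEDF), had adjusted p between 0.348 and 0.925. Serpine2 was called lower without tuft library 5 (adjusted p = 0.0419).

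Several serpins were highest, in both groups, in the libraries numbered 5. Serpinf1 was at 6.43 in non-tuft library 5 and 4.85 in tuft library 5, and otherwise at the floor except for 0.40 in tuft library 3. Serping1 was at 7.20 and 4.93 in these libraries, at 4.26, 4.09 and 2.00 in non-tuft libraries 1 and 3 and tuft library 1, and at the floor in the rest. Serpina3n was at 4.82 and 2.16, with 1.50 in non-tuft library 3, and Serpina3g at 2.58 and 2.49, with all other libraries at the floor. Of Serpina3g's 50-base words 11.7% are shared with paralogs, mostly Serpina3f, and of those of Serpina3n 6.75%.

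The same libraries had a median over the 10 fibroblast and endothelial markers of 6.05 (non-tuft 5) and 3.89 (tuft 5), against 0 to 0.17 in the others. Dcn, a fibroblast proteoglycan, was at 8.34 and 6.84 there and at 0 to 2.41 elsewhere, although the sort kept EpCAM+ cells. Not all of these 10 markers, from a list of 15, followed Dcn. Pecam1, the only endothelial marker among them, was at 4.47 in non-tuft library 1 and 3.31 in non-tuft library 5. Vim was at 5.30 and 5.60 in these 2 libraries. Sparc was at 5.37, 3.89, 4.28, 4.57 and 7.39 in non-tuft libraries 1 to 5. Of the 37 genes, 5 were highest of their group in both libraries numbered 5 (Serpina3n, Serpina3g, Serpini1, Serping1 and Serpinf1), whereas 2, 1, 4 and 3 were highest in both libraries numbered 1, 2, 3 and 4. Leukocyte markers had medians of 2.81 and 2.45 in the libraries numbered 5, against at most 0.43 elsewhere. Ptprc, which encodes Cd45, was the 1 leukocyte marker called, and it was higher in tuft cells by limma (log2 difference 2.72, adjusted p = 0.00292). It was at 3.98, 4.33, 2.74, 2.74 and 3.45 in tuft libraries 1 to 5 and at most 1.93 in a non-tuft library. The part of stromal or leukocyte transcripts in the inhibitor gene values was not tested.

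**Figure D4:**
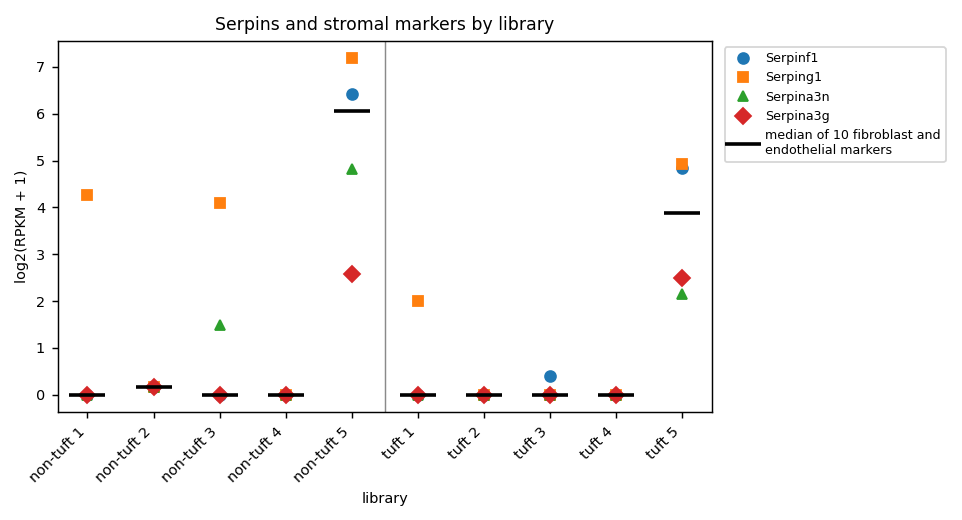
Level in log2(RPKM + 1) of 4 serpins (coloured symbols) in each library, with the median of the 10 listed fibroblast and endothelial markers as a black bar. Both libraries numbered 5 stand out, with marker medians of 6.05 and 3.89 against 0 to 0.17 elsewhere.

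The WAP family included 3 genes lower in tuft cells and 4 not called, and none higher. Wfdc15b (chr2:164040190-164047396) was listed at 7.25, 7.25, 4.77, 7.03 and 5.35 in non-tuft and at 2.79, 0, 0, 0 and 2.14 in tuft libraries 1 to 5. No tuft value reached the non-tuft range, and the log2 difference was −5.34 (standard error 0.71, adjusted p = 3.61e-04), or 40.6-fold on the RPKM + 1 scale. Wfdc2, the secreted epithelial protein HE4, was listed at 6.02, 5.62, 5.49, 6.98 and 5.10 in non-tuft and at 3.15, 2.35, 1.14, 5.80 and 1.39 in tuft libraries 1 to 5. Tuft library 4 overlapped the non-tuft range. It also had the highest acinar marker median of the tuft libraries (8.82), against 8.06 and 7.98 in tuft libraries 1 and 2. Its ductal marker median was 6.36, within the 6.05 to 6.49 of the tuft libraries. The part of acinar or ductal transcripts in the Wfdc2 values was not tested. The log2 difference of Wfdc2 was −3.08 (standard error 0.77, adjusted p = 0.0196).

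Wfdc3 was listed at 5.59, 0.17, 3.09, 4.52 and 2.07 in non-tuft libraries 1 to 5 and at 0 in all tuft libraries (adjusted p = 0.024). Leaving out single libraries raised the adjusted p to at most 0.0609 for Wfdc2, whose call was lost without non-tuft library 4 or tuft library 2, 3 or 5. For Wfdc3 it was 0.0666 under ribosomal centring and 0.111 with 10 added in place of 1. With single libraries left out it rose to at most 0.0644, and the call was lost without non-tuft library 3 or 4 or any 1 of the 5 tuft libraries. Without both libraries numbered 5, the adjusted p was 0.0865 for Wfdc2 and 0.0785 for Wfdc3.

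Wfdc18 was abundant in both groups and differed mainly among non-tuft libraries. It was listed at 8.23, 5.88, 10.68, 8.50 and 9.89 in non-tuft and at 8.52, 8.71, 8.71, 8.66 and 7.83 in tuft libraries 1 to 5. The spread was 1.84 (SD, n = 5) around a mean of 8.63 in non-tuft and 0.38 (SD, n = 5) around 8.49 in tuft cells. The log2 difference was −0.15 (standard error 0.73, adjusted p = 0.929), and its sign turned under ribosomal centring (0.70). In the non-tuft libraries the median over the ductal markers was 5.30, 4.36, 7.15, 6.68 and 6.74, so library 2 was lowest and library 3 highest in both. Ductal content as a source of the Wfdc18 spread was not tested.

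All 3 inter-alpha-inhibitor heavy chain genes had lower means in tuft cells, and 2 were called. Itih2 was listed at 2.50, 2.92, 3.39, 2.34 and 2.07 in non-tuft libraries 1 to 5 and at 0 in every tuft library (adjusted p = 5.21e-04). Itih4 was listed at 2.37, 1.71, 0.85, 3.25 and 2.62 in non-tuft libraries and again at 0 in every tuft library (adjusted p = 0.00709). Itih5 was not called (log2 difference −1.87, standard error 0.68, adjusted p = 0.102), but was without non-tuft library 3 (adjusted p = 0.0237). Without non-tuft library 4, Itih4 fell under the fold threshold. Under ribosomal centring Itih2 fell under it too, and Itih4 no longer passed (adjusted p = 0.0733, and 0.0641 with 10 added in place of 1). Ambp, the precursor of bikunin, to which these heavy chains are linked, was also lower. It was listed at 8.13, 7.16, 7.38, 7.98 and 7.12 in non-tuft and at 3.88, 2.80, 0, 4.77 and 0.45 in tuft libraries 1 to 5 (log2 difference −5.17, standard error 0.82, adjusted p = 0.00117).

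Because several of these proteins are best known from liver, hepatocyte markers were examined. Of 15 on the list, 5 were in the table. Of these, 0 were higher and 2 lower (Ttr and Trf) at the call thresholds, against 4.32% and 3.99% of all genes. The summed linear level of the 5 was 19.3 to 61.0 in tuft and at least 137 in non-tuft libraries. Albumin (Alb) ranged from the floor to 5.48 in non-tuft libraries, and was listed at 3.60, 0, 0, 0.90 and 0 in tuft libraries 1 to 5. Acinar markers differed in the same direction as the inhibitor genes lower in tuft cells. Their summed linear level was 833 to 77500 in tuft and 82500 to 125000 in non-tuft libraries. Of 16 islet markers, 4 were lower and 0 higher, against 3.99% and 4.32% of all genes. Their medians were 7.19, 4.41, 4.14, 0 and 2.96 in non-tuft libraries 1 to 5 against 0 to 2.01 in tuft libraries. Their summed linear level was 2.71 to 22900 in non-tuft and 1.24 to 117 in tuft libraries. The part of acinar, islet or hepatocyte transcripts in the lower values was not tested.

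No cystatin or stefin was called in either direction by limma. Among the 5 genes, 1 passed an unadjusted p under 0.05. This was Cst3 (cystatin C, a secreted inhibitor of cathepsins), listed at 7.18, 7.09, 6.80, 6.73 and 6.55 in non-tuft and at 7.30, 8.29, 7.94, 7.82 and 7.90 in tuft libraries 1 to 5. The groups did not overlap, yet the log2 difference of 0.98 (standard error 0.36) missed the threshold (adjusted p = 0.0996). It passed with 10 added in place of 1 (adjusted p = 0.00792), with ribosomal centring (0.0119) and with the trend and robust settings (0.0217). Cstb (stefin B, a cytosolic inhibitor of cathepsins) was listed at 6.93, 7.14, 6.57, 7.09 and 6.70 in non-tuft and at 6.90, 7.12, 6.05, 7.01 and 5.91 in tuft libraries 1 to 5 (log2 difference −0.29, standard error 0.39, adjusted p = 0.689). Its sign also turned under ribosomal centring (0.55). Cst6, Cst8 and Cst11 were at the floor in 4, 9 and 8 of the 10 libraries.

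Levels were summed over the 37 genes on the linear scale (2 to the log2 value, minus 1). The sum was 0.353% to 0.859% of the total of a non-tuft library and 0.691% to 2.37% of a tuft library. These ranges overlapped. The total covers only the 12160 listed genes, and quantile normalization makes it alike in all libraries. The percentages are therefore not shares of all transcripts. Spint2 supplied 21.7% to 29.5% of the sum in non-tuft libraries and 59.4% to 85.7% in tuft libraries. Serpina6 supplied 8.70% to 42.0% and 0% to 0.60%, and Wfdc18 2.50% to 34.2% and 1.70% to 9.50%. Between 20 and 30 of the 37 genes were above the floor in a non-tuft library and between 15 and 25 in a tuft library.

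**Figure D5:**
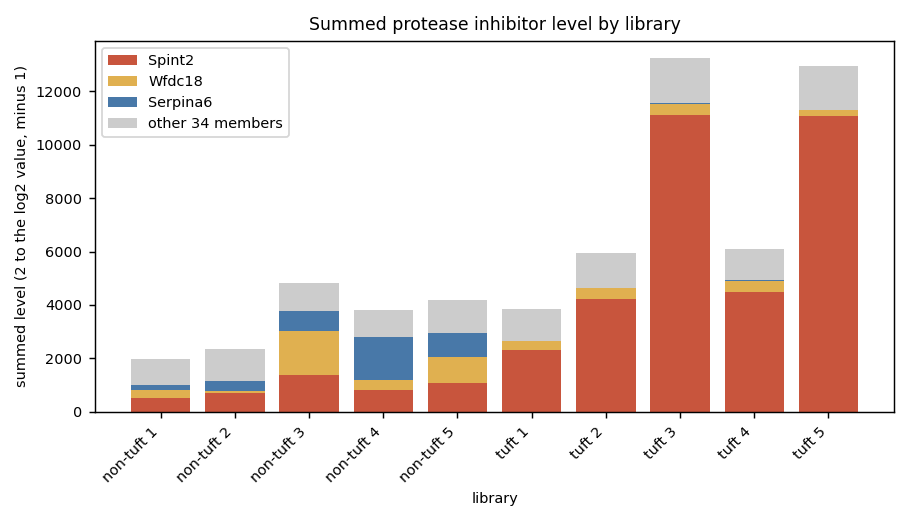
Summed linear level of the 37 inhibitor genes in each library, stacked by Spint2, Wfdc18, Serpina6 and the other 34 genes. Spint2 makes up 59.4% to 85.7% of each tuft bar and 21.7% to 29.5% of each non-tuft bar.

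Inhibitors of other families and the proteases they act on were counted from 2 further lists. Of 41 other inhibitors, 23 were in the table. Of these, 0 were higher, 4 lower and 19 not called, against 4.32% of all genes higher and 3.99% lower. The 4 lower genes were Ambp, Spink1, Fetub and Timp1. Spink1, the acinar secretory trypsin inhibitor, had means of 7.39 in tuft and 10.48 in non-tuft cells (log2 difference −3.09, adjusted p = 0.00899), and was outside the naming rule of the 3 smallest p-values. Fetub (fetuin-B, an inhibitor of astacin proteases) had means of 0.35 in tuft and 3.34 in non-tuft cells (adjusted p = 0.00124), and Timp1, an inhibitor of matrix metalloproteinases, a log2 difference of −2.72 (adjusted p = 0.00316).

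Of 52 proteases on the second list, 36 were in the table. Of these, 1 was higher, 13 lower and 22 not called, against 4.32% of all genes higher and 3.99% lower. The gene higher in tuft cells was Ctsc (cathepsin C, which activates granule serine proteases), at 5.87, 5.87, 4.72, 2.49 and 6.49 in non-tuft and at 7.52, 8.80, 11.03, 8.75 and 11.53 in tuft libraries 1 to 5 (log2 difference 4.44, standard error 0.87, adjusted p = 0.0048). Among those lower, the smallest p-values were those of the tissue kallikreins Klk1b4 (log2 difference −6.13, adjusted p = 3.5e-06) and Klk1 (−4.42, adjusted p = 0.00112), with hepsin next. Cathepsins were divided. Ctsl (log2 difference −3.53, adjusted p = 0.00802) and Ctsz (−2.60, adjusted p = 0.0299) were lower, and Ctsb, Ctsd, Ctsh, Ctsk and Ctss were not called. The protease list also holds acinar digestive enzymes such as trypsinogen Prss1, which was lower (log2 difference −4.64, adjusted p = 0.0068). Prss2, which is also among the acinar markers, was not called (adjusted p = 0.0713). The part of acinar transcripts in the lower protease values was not tested.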

How the data were processed

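Smart-Seq2 libraries of 100 sorted cells each, 5 from tuft and 5 from non-tuft cells by the cell type in the labels, were analysed. The authors mapped single-end reads to mm9 with Hisat2, obtained RPKM per gene from Stringtie and Ballgown, removed genes with an RPKM variance under 1, and deposited log2(RPKM + 1) values quantile normalized with preprocessCore. The submitters' processing notes also name FastQC and limma. The deposited fold change and p-value columns hold the authors' own comparison and were not used. Read counts, and so depth, are unknown. A variance filter drops genes low everywhere, and quantile normalization gives every library the same distribution, so a value is relative to the rest of its library.

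The comparison used limma 3.58.1 under R 4.3.3 (lmFit, eBayes) on the log2 values of all 12160 genes, without covariates, with Benjamini-Hochberg adjustment. Groups were compared for overlap with the floor of each library as 0. A call needed an adjusted p below 0.05 and more than a 4-fold difference. A fold on the RPKM + 1 scale understates the change of low genes.

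Members named with values are those that pass the adjusted p, whose mean in a group reaches 6 on the log2 scale, or with groups that do not overlap; other members are named by their place in the genome or by library 5. Of the lists of other inhibitors and proteases, the 3 genes of smallest p in each direction are named. Spink1, Prss1, Prss2, Prss8, St14, Hgfac, Tmprss2, Tmprss4 and the cathepsins other than Ctsc are named outside this rule. The members and lists were chosen with earlier results of these data known.

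Positions and transcripts are from the NCBIM37 annotation. It holds 110 names of these families, of which 35 were in the table, and 2 more members (Wfdc17 and Wfdc18) were found under older names. Promoters are RefSeq windows, the first listed per gene. Shared 50-base words are those found in a coding transcript of another gene. The alternatives tried were a replicate block, 0.1 or 10 added in place of 1, a filter at a mean of 2 on the log2 scale, centring on the median of 81 ribosomal protein genes, trend and robust settings, a fold threshold of 2, treat, an adjusted p under 0.01, and each library left out. After seeing the data, floors set to 0 and both libraries numbered 5 left out were added.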

Additional observations from a re-analysis of the deposited data

Results flagged for a closer look

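Single libraries stood apart in 13 of the 65 groups of 5 values that could be tested, by Dixon's test of the gap between the extreme value and its neighbour. In 10 of the 13, the other 4 libraries of the group were at the floor, so that any value above it passes; the 5% of groups that chance gives applies only to groups without such ties. In all, 10 were in the libraries numbered 5. In tuft library 5 these were Serpinf1 (4.85), Serpine2 (3.85), Wfdc1 (3.03), Serpina3g (2.49) and Serpina3n (2.16), each far above the other tuft libraries, and Wfdc18 (7.83), below them. In non-tuft library 5 they were Serpinf1 (6.43), Cst8 (2.58), Serpina3g (2.58) and Serpina11 (0.23), each above the other non-tuft libraries. Elsewhere they were Serpinb9b in tuft library 4 (4.99), Wfdc17 in tuft library 3 (4.89) and Wfdc13 in tuft library 1 (4.71), again above the rest of their group.

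The libraries in which Serpinf1, Serpina3g and Serpina3n stood out were those with fibroblast and endothelial marker medians of 6.05 (non-tuft) and 3.89 (tuft), and leukocyte marker medians of 2.81 and 2.45. The part of such transcripts in these values was not tested.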

How the results depend on the processing

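Of the 37 genes, 5 were called higher and 10 lower, and 15 passed an adjusted p under 0.05. Adding 10 in place of 1 gave 2 higher and 3 lower, against 1.33% and 0.954% of all genes, since the fold of low genes shrinks. Requiring a mean log2 value of at least 2 left 16 members, with 3 higher, 6 lower and 9 at any fold. Of all genes kept, 5.79% were higher, 4.73% lower and 16.0% passed at any fold. Centring on ribosomal protein genes moved the median difference of all genes to 0.87; it gave 5 members higher and 6 lower, and 1400 of all genes higher and 222 lower in place of 525 and 485. Limma's treat against a fold of 4 gave 0 higher and 3 lower, against 0.485% and 0.378% of all genes. At an unadjusted treat p under 0.05, 2 were higher and 5 lower. Leaving out each library in turn gave 5 to 5 higher, 7 to 11 lower and 13 to 16 at any fold. The shares of all genes were 3.68% to 4.38%, 3.24% to 3.92% and 8.61% to 11.2%. The lowest count of lower genes came without non-tuft library 4. Without both libraries numbered 5, 5 were higher, 7 lower and 12 passed at any fold, against 3.63%, 2.99% and 7.87% of all genes. Centring turned the sign of 8 of the 37 genes, leaving out both libraries numbered 5 of 2, and leaving out a single library of 1 to 4; none of these was a called gene. Among the 20 genes of the naming rule they were Wfdc18 (0.70 when centred, 0.33 without both libraries numbered 5, and from −0.83 to 0.37 with single libraries left out, above 0 without non-tuft library 3 (0.37), non-tuft library 5 (0.17) or tuft library 5 (0.02)) and Cstb (0.55 when centred). The 0.1 constant, the trend and robust settings, a fold over 2, an adjusted p under 0.01 and floors set to 0 kept each count within 1.5 times its value.

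Both groups came from 5 mice, but whether equal replicate numbers mean the same mouse is not stated in the labels. Deviations of libraries with the same number correlated at 0.124, 0.079, 0.115, 0.062 and 0.24 for numbers 1 to 5, and 3 of 5 tuft libraries correlated best with the non-tuft library of their own number. With the replicate block, 5 were higher, 10 lower and 16 passed at any fold, against 4.26%, 4.04% and 11.6% of all genes. Unknown depth limits what can be said of genes at the floor.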
